A study of Mus musculus with 2 samples.

Results

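The 39 Hox genes were followed through the cells of mouse back skin and of the preputial gland (PG). They were chosen by symbol, as every gene of the 32285 in the feature list whose name is Hox, a cluster letter from a to d and a number. All 39 were matched by Ensembl identifier to the GENCODE M21 annotation of build mm10. The HoxA cluster holds 11 genes on chromosome 6 (52155590 to 52260880, minus strand), HoxB holds 10 on chromosome 11 (96194316 to 96368256, plus strand), HoxC holds 9 on chromosome 15 (102921103 to 103036852, plus strand) and HoxD holds 9 on chromosome 2 (74668310 to 74765142, plus strand). The PG is a paired, sebum-producing gland of the genital region that opens beside the prepuce. Both tissues came from the same 3 male wild type C57BL/6 mice, aged 52 weeks and not treated, and the cells of the mice were pooled into 1 library for each tissue. With 1 library per tissue there are no replicates, so no test was made, and tissue, library and run cannot be told apart.

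Hox genes encode homeodomain transcription factors that give cells an address along the head-to-tail axis. Genes of the same number in different clusters are paralogs, descended from the same ancestral gene, and within a cluster the genes lie in the order of their numbers: low numbers (anterior) are used furthest towards the head, high numbers (posterior) towards the tail, the limb ends and the genitalia. Adult skin fibroblasts are known to keep a Hox pattern of the body site they come from, and Hoxc13 is known for a separate use in the hair shaft and nail, where it drives hair keratin genes.

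A unique molecular identifier (UMI) marks 1 captured mRNA molecule at its 3′ end, so levels were not divided by gene length. Levels are the UMIs of a gene over all UMIs of the same cells, in parts per 1000000 (CPM), with exact Poisson intervals for levels, exact Clopper-Pearson intervals for shares and exact binomial intervals for log2 ratios, all at 95% and covering counting error only. Barcodes were kept from 500 genes and 1000 UMIs upwards if mitochondrial genes held no more than 10% of their UMIs: 8899 in skin (median 2386 UMIs) and 4699 in PG (median 2729 UMIs), from totals of 37675226 and 26288071 UMIs. No barcode was kept in both libraries, but few could have been. Only 153 kept skin cells and 455 kept PG cells had a barcode that is also in the list of the other tissue. The barcode list of skin holds 6794880 entries and that of PG 737280, although the labels name the same kit for both. Tissue and barcode list therefore cannot be told apart either, and the part of this difference in any tissue contrast was not tested. Cells were assigned to a class from marker genes, none of them a Hox gene. This gave 948 fibroblasts, 5619 keratinocytes, 311 hair matrix cells, 494 inner root sheath cells and 29 sebocytes in skin, and 569 fibroblasts, 2310 keratinocytes and 748 sebocytes in PG, with 1187 and 820 cells in no class. Separate check genes for fibroblasts, keratinocytes, sebocytes and hair matrix summed highest in the class they name within a tissue. Those for inner root sheath did not: they were found in 34.2% of inner root sheath cells and, led by Trps1, in 60.8% of hair matrix cells. A hair matrix check gene, mostly Psors1c2 or Krt81, was found in 21.2% of hair matrix cells, so that label rests mainly on the gate markers. These include the hair keratins Krt31, Krt35, Krt85 and Krt86, so the class may consist largely of cells of the forming hair shaft. In clusters made without Hox genes, 121 of the 311 cells lay in a cluster led by Krt35. Another 77 lay in one led by Krtap8-1 and Krt31. How many of them are shaft cells was not tested. No PG cell passed the hair matrix or inner root sheath gate.

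Fibroblasts of both tissues carried a similar amount of Hox mRNA in a different composition. The 39 genes summed to 628 UMIs or 340 CPM in skin (314 to 368) and to 250 UMIs or 299 CPM in PG (263 to 338), a log2 ratio of PG over skin of -0.19 (-0.40 to 0.03). Paralog groups 9 to 13 made up 14.0% of the Hox UMIs in skin fibroblasts (11.4 to 17.0) and 72.4% in PG fibroblasts (66.4 to 77.8). HoxC led in both tissues, with 62.9% of Hox UMIs in skin and 65.6% in PG, but its weight lay at different genes. Among the 19 Hox genes with at least 10 UMIs over both tissues, 7 were higher in PG by 2-fold or more, against 11.0% of all 10821 genes with as many UMIs, and 10 were lower, against 10.9% of all genes. A call here means a ratio past 2-fold and says nothing of replicate spread. With cells kept from 1000 genes and 2000 UMIs upwards, which left 49 PG fibroblasts, 0 were higher and 2 lower, and with at least 20 UMIs over both tissues 2 were higher. The share of all genes was not counted under these settings, so these counts have no background beside them. In the main comparison, the 2 genes that were not called were Hoxd4 and Hoxd8.

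Within HoxC the difference followed the order of the genes along chromosome 15. Hoxc4 had 47 UMIs in skin fibroblasts (25.4 CPM) and 4 in PG (4.78 CPM), Hoxc6 had 99 (53.6 CPM) and 21 (25.1 CPM), and Hoxc8, the highest Hox gene of skin fibroblasts, had 155 (83.9 CPM) and 15 (17.9 CPM). All of these were lower in PG, Hoxc8 by 2.23 on the log2 scale (interval of the ratio -3.10 to -1.46). The next genes towards the posterior end were higher in PG. Hoxc9 had 62 UMIs in skin (33.6 CPM) and 59 in PG (70.5 CPM), a log2 ratio of 1.07 (0.53 to 1.61), and Hoxc10 had 8 (4.33 CPM) and 45 (53.8 CPM), a log2 ratio of 3.63 (2.53 to 4.93). Hoxc11 had 0 UMIs in skin fibroblasts and 19 in PG (22.7 CPM). Against a floor of 3 UMIs over the skin fibroblasts, that is at least 14.0-fold higher in PG. Hoxc12 had 0 UMIs in fibroblasts of either tissue, and Hoxc13 had 5 in skin and 0 in PG.

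The other clusters added fewer UMIs. Hoxa7 had 54 UMIs in skin (29.2 CPM) and 2 in PG (2.39 CPM), and Hoxa5 had 15 and 1. Hoxb2, Hoxb3, Hoxb4 and Hoxb7 had 20 to 31 UMIs each in skin fibroblasts and 1 to 5 in PG. The whole of HoxB had 109 UMIs in skin (59.0 CPM) and 13 in PG (15.5 CPM). Hoxd13, the last gene of HoxD and known for its use in the genital tubercle and digits, had 11 UMIs in PG fibroblasts (13.2 CPM) and 0 in every skin class. It also had 0 UMIs in PG keratinocytes, sebocytes and immune cells, and 2 in the free RNA of PG. Hoxd11 had 10 UMIs in PG fibroblasts and 0 in skin ones, and Hoxa9 had 10 and 3, at 11.96 and 1.62 CPM. Both were higher in the PG epithelium, and in PG immune cells Hoxa9 was at 7.37 CPM (1.52 to 21.5). Hoxd8 and Hoxd9 were at 7.17 CPM each in PG fibroblasts against 4.91 and 7.37 CPM in PG immune cells. How much of these low values is free RNA was not tested.

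**Figure D1:**
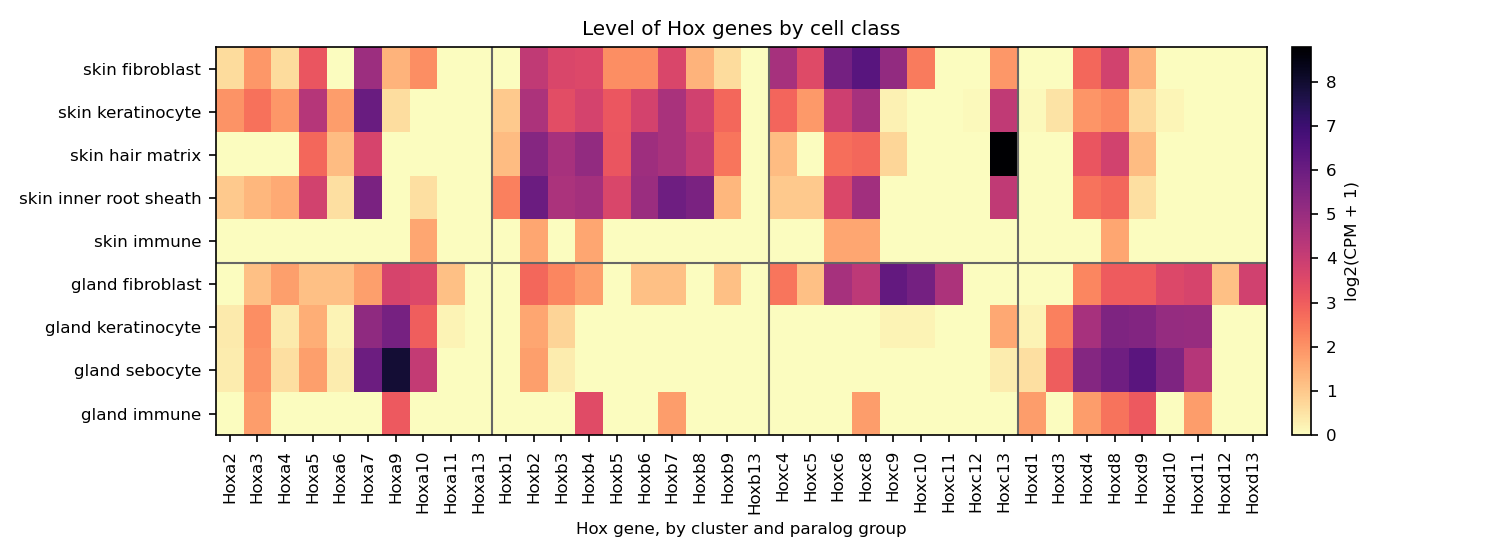
Level of Hox genes, as log2(CPM + 1) in colour, in gated classes of skin (above the line) and preputial gland (below it). Columns run from low to high paralog number within HoxA, HoxB, HoxC and HoxD. Skin classes are filled towards the low numbers, PG fibroblasts at Hoxc9 to Hoxc11, PG epithelium at Hoxa7 to Hoxa10 and Hoxd4 to Hoxd11, and hair matrix stands out at Hoxc13.

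Keratinocytes differed between the tissues in the level of 3 whole clusters and in the order of use within HoxA. The summed Hox level was nearly equal, 281 CPM in skin (273 to 289, 4841 UMIs) and 289 CPM in PG (277 to 302, 2040 UMIs), a log2 ratio of 0.04 (-0.03 to 0.12). HoxB was at 109 CPM in skin and 2.84 CPM in PG and HoxC at 65.4 and 2.27 CPM, while HoxD was at 7.48 CPM in skin and 183 CPM in PG, 24.5-fold higher. HoxA was at 99.0 CPM in skin and 101 CPM in PG. Of the 29 Hox genes with at least 10 UMIs over both tissues, 8 were higher in PG by 2-fold or more, against 18.0% of all 14349 genes, and 19 were lower, against 20.6%. Hoxa3 and Hoxa7 were the 2 that passed neither limit. Paralog groups 9 to 13 gave 8.76% of Hox UMIs in skin keratinocytes (7.98 to 9.59) and 58.4% in PG keratinocytes (56.2 to 60.5).

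HoxA had the same total but was read further along the cluster in PG. Hoxa7, the highest Hox gene of skin keratinocytes, had 1112 UMIs there (64.5 CPM) and 254 in PG (36.0 CPM), a log2 ratio of -0.84 (-1.04 to -0.64). Its neighbour Hoxa9 had 9 UMIs in skin (0.522 CPM) and 368 in PG (52.2 CPM), a ratio of 6.64 on the log2 scale (5.70 to 7.78). Hoxa10 had 0 UMIs in skin keratinocytes and 48 in PG, at least 39.1-fold higher. On the anterior side Hoxa5 had 345 UMIs in skin (20.01 CPM) and 13 in PG (1.84 CPM), and Hoxa2, Hoxa4 and Hoxa6 had 43 to 50 UMIs in skin and 1 or 2 in PG. In skin keratinocytes the HoxA UMIs thus ended after Hoxa7, apart from 9 of Hoxa9, and in PG keratinocytes most lay at Hoxa7 to Hoxa10. Hoxa11 had 0 UMIs in skin and 1 in PG keratinocytes, and Hoxa13 had 0 in every class of both tissues.

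In HoxD the ratio of PG over skin was larger at Hoxd9 to Hoxd11 than at Hoxd4 and Hoxd8. Hoxd4 had 49 UMIs in skin keratinocytes (2.84 CPM) and 176 in PG (25.0 CPM), 8.78-fold higher, and Hoxd8 had 60 (3.48 CPM) and 328 (46.5 CPM), 13.4-fold higher. Hoxd9 had 10 UMIs in skin (0.580 CPM) and 304 in PG (43.1 CPM), 74.3-fold higher. Hoxd10 had 2 UMIs in skin and 230 in PG (32.6 CPM), a log2 ratio of 8.13 (6.27 to 11.2), and Hoxd11 had 0 in skin and 224 in PG (31.8 CPM), at least 183-fold higher. Beyond it nothing was detected at this depth: Hoxd12 and Hoxd13 had 0 UMIs in PG keratinocytes, where 3 UMIs would be 0.426 CPM. Hoxd3 had 7 UMIs in skin and 28 in PG, but the annotation gives Hoxd3 and Hoxd4 388 shared exon bases on the same strand. A UMI from these bases cannot be assigned to 1 of the genes, and whether such UMIs were counted is not given in the sources used here. The same holds for Hoxc5 and Hoxc10, with 166 shared bases. No other pair of Hox genes shared exon bases on the same strand.

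HoxB and HoxC were higher in skin. Hoxb4 to Hoxb9 had 103 to 412 UMIs each in skin keratinocytes, the most at Hoxb7 (23.9 CPM), and 0 each in PG keratinocytes. Hoxb7 was therefore at least 56.2-fold lower in PG. Hoxb2 had 394 UMIs in skin (22.9 CPM) and 15 in PG (2.13 CPM). Hoxc4, Hoxc5, Hoxc6 and Hoxc8 had 106, 45, 241 and 436 UMIs in skin and 0 each in PG. For Hoxc8 that is at least 59.4-fold lower. Hoxc9, Hoxc10 and Hoxc11, which PG fibroblasts carried, had 1, 1 and 0 UMIs in PG keratinocytes. Hoxc13 had 14 UMIs in PG keratinocytes, most of their 16 HoxC UMIs, and 0 in PG fibroblasts. In PG fibroblasts 3 UMIs would be 3.59 CPM, above the 2.27 CPM of all HoxC in PG keratinocytes. The level of Hoxc13 therefore cannot be compared between these 2 classes.

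**Figure D2:**
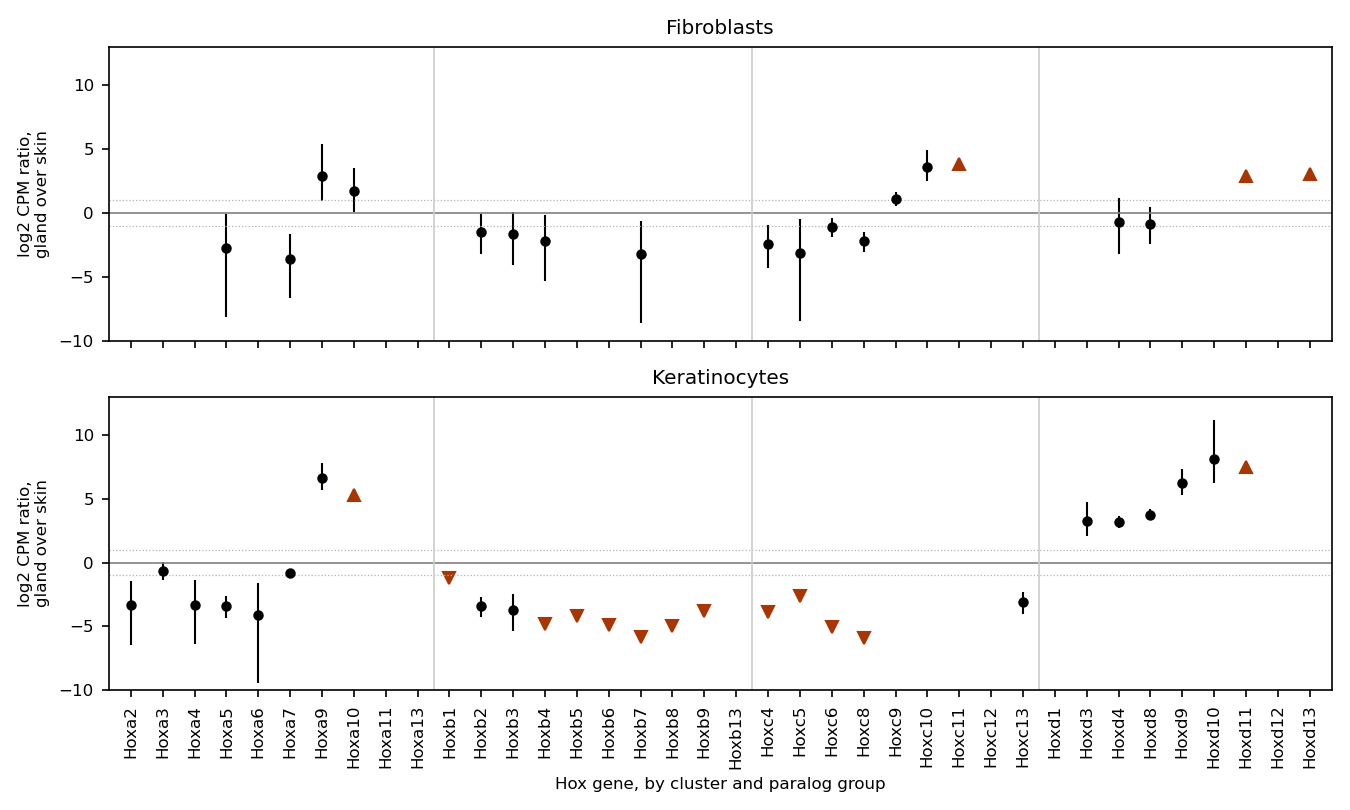
Log2 CPM ratio of preputial gland over skin for Hox genes with at least 10 UMIs over both tissues, in fibroblasts (top) and keratinocytes (bottom). Points carry exact 95% counting intervals, triangles are bounds where 1 tissue had 0 UMIs (up: at least, down: at most), and dotted lines mark 2-fold. Hoxc4 to Hoxc8 lie below 0 and Hoxc9 to Hoxc11 above it in fibroblasts, and Hoxa9, Hoxa10 and Hoxd3 to Hoxd11 lie above 0 in keratinocytes.

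The limits of the used stretch fell between neighbouring genes, and the promoters on each side of 2 such limits are printed from RefSeq (build GRCm38.p6), 250 bases before the start and 50 after, with each CpG in capitals. CpG-rich promoters are a known feature of genes under Polycomb control. The first pair is Hoxa7 (chr6:52218524-52218823, minus strand) and Hoxa9 (chr6:52227321-52227620, minus strand), at 1112 and 9 UMIs in skin keratinocytes. Each is the only window listed for its gene. Both lie inside the GENCODE gene models, which start at 52221854 for Hoxa7 and 52231089 for Hoxa9.
Hoxa7: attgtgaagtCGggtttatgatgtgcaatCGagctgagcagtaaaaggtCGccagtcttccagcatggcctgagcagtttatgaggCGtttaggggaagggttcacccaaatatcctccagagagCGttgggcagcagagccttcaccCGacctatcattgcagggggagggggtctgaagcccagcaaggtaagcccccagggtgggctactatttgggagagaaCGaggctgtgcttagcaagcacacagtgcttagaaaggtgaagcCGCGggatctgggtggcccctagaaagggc
Hoxa9: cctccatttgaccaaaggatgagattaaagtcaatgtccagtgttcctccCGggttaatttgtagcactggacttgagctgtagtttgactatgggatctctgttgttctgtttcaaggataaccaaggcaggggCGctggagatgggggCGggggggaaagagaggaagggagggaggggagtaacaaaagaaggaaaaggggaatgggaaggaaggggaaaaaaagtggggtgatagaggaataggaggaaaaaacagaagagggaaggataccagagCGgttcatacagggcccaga
The second pair is Hoxd11 (chr2:74679308-74679607, plus strand, the window nearest the start of the gene model of 2 listed) and Hoxd12 (chr2:74674763-74675062, plus strand), at 224 and 0 UMIs in PG keratinocytes.
Hoxd11: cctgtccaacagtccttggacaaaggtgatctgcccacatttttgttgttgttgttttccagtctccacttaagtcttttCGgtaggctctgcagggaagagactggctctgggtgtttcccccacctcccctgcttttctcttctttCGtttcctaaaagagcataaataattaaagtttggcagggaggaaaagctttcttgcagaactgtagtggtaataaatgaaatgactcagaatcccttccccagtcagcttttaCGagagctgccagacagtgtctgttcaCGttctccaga
Hoxd12: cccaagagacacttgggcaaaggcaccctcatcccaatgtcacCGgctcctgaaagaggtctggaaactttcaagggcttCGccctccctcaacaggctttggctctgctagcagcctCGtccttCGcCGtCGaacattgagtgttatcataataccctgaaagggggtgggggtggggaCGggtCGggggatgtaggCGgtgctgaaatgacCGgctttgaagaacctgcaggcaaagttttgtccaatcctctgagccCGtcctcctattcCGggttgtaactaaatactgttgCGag
Hoxa7 holds 9 CpG and Hoxa9 holds 4, at 55.7% and 49.7% G and C. Hoxd11 holds 4 and Hoxd12 holds 13, at 45.7% and 55.0%. In the printed windows, the used gene of a pair was thus the one with more CpG in HoxA and the one with fewer in HoxD. Whether the counted transcripts start at these windows was not tested. Over the 24 listed promoters of 22 Hox genes the median was 14.5 CpG, beside 7 over all 32851 listed promoters. The motif TGATNNAT, to which Hox proteins bind with Pbx partners, and the TATA box TATAAA were searched on both strands and matched none of the 4 windows. They matched 4 of the 24 Hox promoters each, beside 8.85% and 13.6% of all listed promoters.

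Summed over each class, PG sebocytes carried about 2 times the Hox level of PG keratinocytes. They were at 578 CPM over all 39 Hox genes (556 to 602, 2378 UMIs) against 289 CPM, a log2 ratio of 0.999 (0.914 to 1.09). The set of genes was the same: the 8 highest in sebocytes were Hoxa9, Hoxd9, Hoxa7, Hoxd8, Hoxd10, Hoxd4, Hoxd11 and Hoxa10. Hoxa9 alone had 976 UMIs in sebocytes (238 CPM) against 368 in keratinocytes (52.2 CPM), a log2 ratio of 2.18 (2.01 to 2.36), and Hoxa10 had 67 (16.3 CPM) against 48 (6.81 CPM). Hoxd11 went the other way, with 83 UMIs (20.2 CPM) against 224 (31.8 CPM), a log2 ratio of -0.65 (-1.03 to -0.28). Of the 13 Hox genes with at least 10 UMIs, 2 were higher in sebocytes by 2-fold or more (Hoxa9 and Hoxa10), against 7.57% of all 12277 genes, and 1 was lower (Hoxc13, 1 against 14 UMIs), against 21.0%. Hoxa9 was detected in 58.0% of sebocytes at a median of 5234 UMIs and in 13.5% of keratinocytes at a median of 2802. Thinned to 1000 UMIs per cell, the shares were 17.1% (14.5 to 20.01) and 5.11% (4.25 to 6.09), and that of PG immune cells was 1.01% (0.123 to 3.601). Hoxa9 was at 126 CPM in the free RNA of PG, below its level in sebocytes and above that in keratinocytes.

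Clusters made without any Hox gene put these differences on a finer scale. The 4 sebocyte clusters of PG were at 117 CPM of Hoxa9 (cluster 3, led by Cyp2f2 and Fgfbp1), 213 CPM (cluster 6, Spink8 and Cidea), 291 CPM (cluster 8, Idi1 and Olah) and 367 CPM (cluster 18, Awat2 and Pnpla5). Awat2 encodes a wax ester synthase of sebaceous cells. Their Hoxd11 levels were 24.6, 22.1, 20.3 and 10.9 CPM. The keratinocyte clusters of PG lay between 23.6 and 87.1 CPM of Hoxa9. Cluster 1 (423 cells, led by Tagln) had the lowest total Hox level of them, 136 CPM, and it held 10 of the Hoxc13 UMIs of PG. The highest totals among the keratinocyte clusters were 478 CPM (cluster 11), 437 CPM (cluster 0, 812 cells) and 381.5 CPM (cluster 14). Sebocyte clusters 3, 6, 8 and 18 totalled 472.5, 578, 651 and 604 CPM. The 2-fold difference of the class sums thus did not hold between all clusters.

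**Figure D3:**
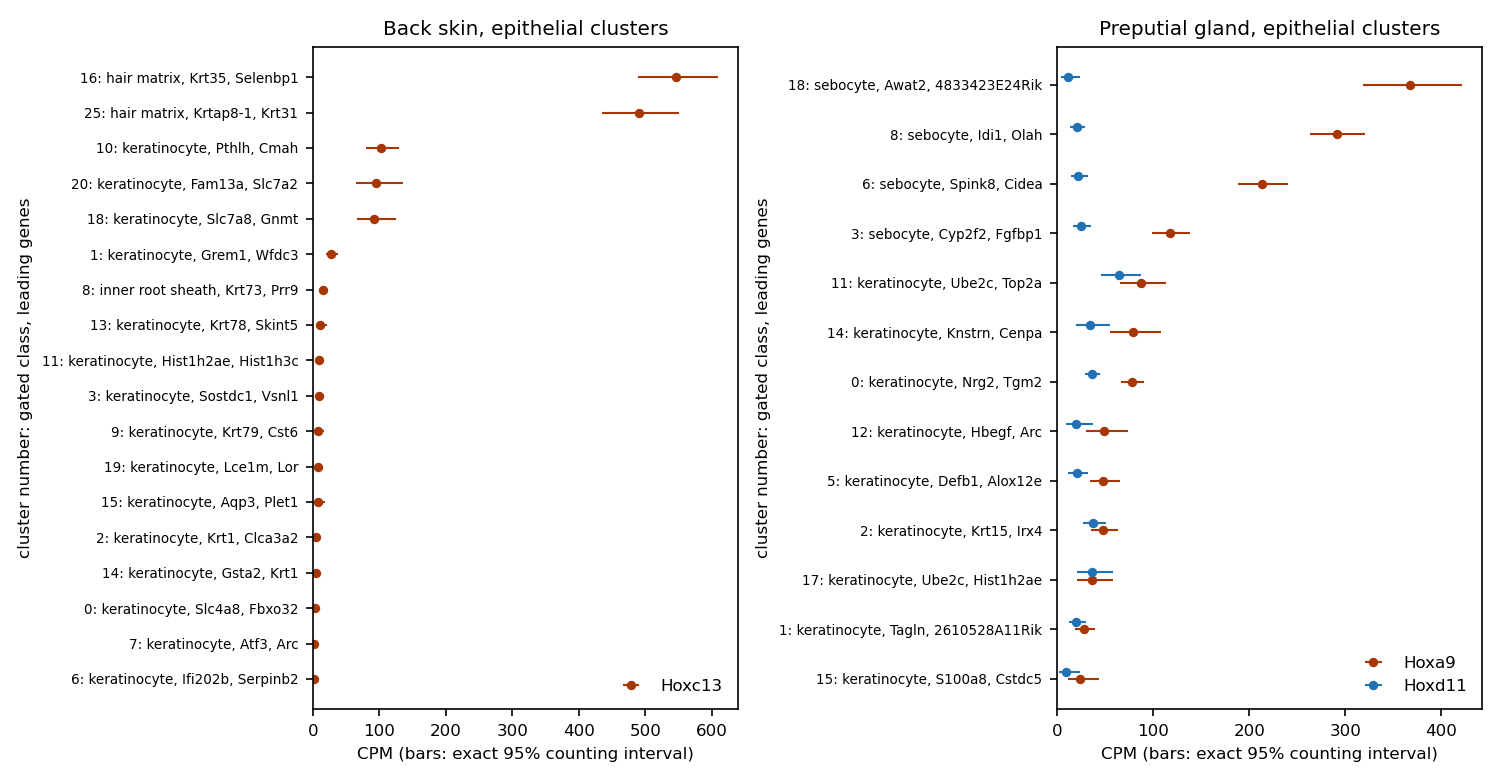
CPM of Hoxc13 in epithelial clusters of skin (left) and of Hoxa9 and Hoxd11 in those of preputial gland (right), for clusters in which at least 50% of cells passed the gate named on the axis. Bars are exact 95% counting intervals. The 2 clusters named by the hair matrix gate are at 547 and 490 CPM of Hoxc13, and the 4 sebocyte clusters hold the highest Hoxa9 levels of the gland.

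Skin sebocytes were few and gave little to compare. The 29 cells had 21 Hox UMIs, 149 CPM (92.0 to 227), of which 11 were HoxB, 6 HoxA, 4 Hoxc13 and 0 HoxD. Hoxa9 had 0 UMIs there, so PG sebocytes were at least 11.2-fold higher, and HoxD as a whole was at least 12.01-fold higher. HoxA was at 42.5 CPM in skin sebocytes (15.6 to 92.5) and 320 CPM in PG sebocytes (303 to 338). HoxB was lower in PG sebocytes, at 2.68 CPM (11 UMIs), by 4.86 on the log2 scale (interval of the ratio -6.21 to -3.52). HoxB was thus lower and HoxD higher in PG in sebocytes as in keratinocytes, whereas HoxA and the summed Hox level were higher in PG sebocytes and nearly equal between keratinocytes. The skin values rest on few UMIs.

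The hair matrix of skin departed from the surrounding epithelium at Hoxc13. It had 657 UMIs in hair matrix cells (439 CPM, 406 to 474) and 296 in skin keratinocytes (17.2 CPM, 15.3 to 19.2), a log2 ratio of 4.68 (4.48 to 4.88), and it made up 64.8% of all Hox UMIs of the class. Inner root sheath cells had 34 (16.8 CPM), PG keratinocytes 14 (1.99 CPM) and PG sebocytes 1. The gate of the hair matrix class reads hair keratins, genes that Hoxc13 is known to drive. The Hoxc13 contrast is therefore not independent of how these cells were chosen. In all, the 39 genes were at 678 CPM in hair matrix (637 to 721), and without paralog groups 9 to 13 they were at 232 CPM beside 256 CPM in keratinocytes. Of the 24 Hox genes with at least 10 UMIs over both classes, 7 were higher in hair matrix by 2-fold or more, against 13.6% of all 13799 genes, and 6 were lower, against 18.8%. The genes that lie next to Hoxc13 were not detected with it or had few UMIs. Hoxc12 had 0 UMIs in hair matrix and 1 in keratinocytes, Hoxc11 and Hoxc10 had 0 in both, and Hoxc9 had 1 and 3. Of the lower numbers of HoxC, Hoxc4, Hoxc6 and Hoxc8 were lower by 2-fold or more: Hoxc8 had 9 UMIs in hair matrix (6.02 CPM) against 436 in keratinocytes (25.3 CPM), a log2 ratio of -2.07 (-3.21 to -1.13). In HoxA, Hoxa7 had 18 (12.03 CPM) against 1112 (64.5 CPM). Other genes of low or middle number were higher: Hoxb3, Hoxb4 and Hoxb6 by 2.63-fold, 2.79-fold and 2.29-fold, and Hoxd4 and Hoxd8 by 2.82-fold and 3.65-fold.

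Hoxc13 was detected in 67.5% of hair matrix cells at a median of 4118 UMIs, in 3.90% of skin keratinocytes at a median of 2502 and in 0 of 245 immune cells at a median of 1721, where the upper 95% limit is 1.49%. Thinned to 1000 UMIs the first 2 shares were 33.1% (27.9 to 38.6) and 1.78% (1.45 to 2.16). Free RNA of skin held Hoxc13 at 69.5 CPM, between these classes. Among the clusters of skin, Hoxc13 was at 547 CPM in cluster 16 (171 cells, led by Krt35), 490 CPM in cluster 25 (82 cells, led by Krtap8-1 and Krt31) and 451 CPM in cluster 24 (82 cells, led by Tchhl1 and Soat1), which no class gate held in the majority. It was at 132 CPM in the cycling cluster 5 and at 91.6 to 102 CPM in the keratinocyte clusters 10, 18 and 20, and between 1.02 and 27.2 CPM in the other keratinocyte clusters in the plot of cluster levels.

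Inner root sheath cells, which wrap the growing hair, held more HoxB than skin keratinocytes when each class was summed. HoxB was at 266 CPM (538 UMIs) beside 109 CPM in keratinocytes, 66.2% of their Hox UMIs, with Hoxb8 at 48.9 CPM against 13.3 CPM (log2 ratio 1.87, 1.52 to 2.22), Hoxb7 at 59.3 against 23.9 CPM and Hoxb2 at 61.8 against 22.9 CPM. Of 24 Hox genes, 7 were higher than in keratinocytes by 2-fold or more, against 13.7% of all 13839 genes, and all 7 were HoxB genes. Another 6 were lower, against 15.4%, among them Hoxb9, and Hoxb5 passed neither limit. Hoxc13 did not differ beyond counting error (log2 ratio -0.03, -0.59 to 0.48). HoxB was also above its keratinocyte level in hair matrix, at 183 CPM (162 to 206), and in skin endothelial cells, at 294 CPM (202 to 413). The inner root sheath class was uneven. In cluster 8 (led by Krt73), which held 262 of its cells, Hoxb2, Hoxb7 and Hoxb8 were at 45.4, 64.4 and 36.6 CPM. They were higher, at 79.8, 72.4 and 70.8 CPM, in the cycling cluster 5, of whose 436 cells 138 passed the inner root sheath gate. The keratinocyte class was uneven too. In its cluster 1 (699 cells, led by Grem1 and Wfdc3), Hoxb7 was at 68.65 CPM, above the level of the summed inner root sheath class. Hoxb8 and Hoxb2 were at 36.2 and 24.1 CPM there, below the summed class, although Hoxb8 was near its level in cluster 8.

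**Figure D4:**
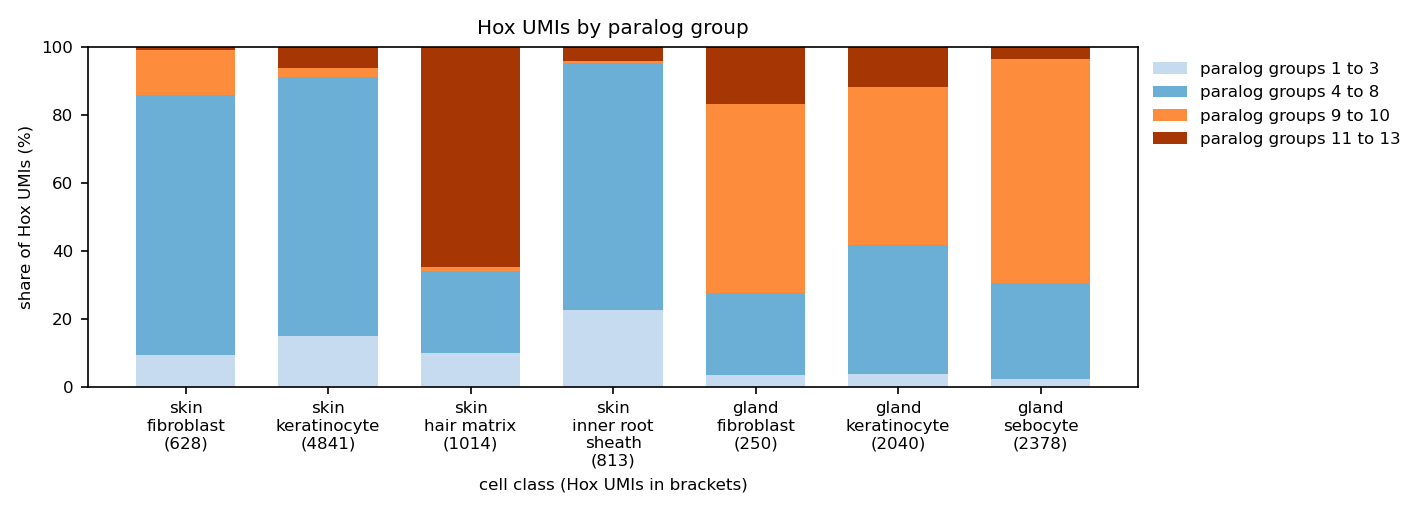
Share of all Hox UMIs from paralog groups 1 to 3, 4 to 8, 9 to 10 and 11 to 13 in each class, stacked to 100%, with the number of Hox UMIs under each bar. Groups 4 to 8 fill 76.6% and 76.2% of skin fibroblasts and keratinocytes, groups 9 to 10 fill 55.6%, 46.7% and 65.8% of PG fibroblasts, keratinocytes and sebocytes, and groups 11 to 13 fill 64.8% of hair matrix, all of it Hoxc13.

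Within each tissue, the Hox UMIs of fibroblasts and keratinocytes were spread differently over the Hox clusters. In skin, HoxC was at 214 CPM in fibroblasts and 65.4 CPM in keratinocytes, 3.27-fold higher, whereas HoxA was at 46.6 and 99.0 CPM. Hoxc9 had 62 UMIs in fibroblasts and 3 in keratinocytes, a log2 ratio of 7.59 (5.98 to 9.91), and Hoxc10 had 8 and 0. Of 26 Hox genes, 9 were higher in skin fibroblasts by 2-fold or more, against 22.0% of all 14306 genes, and 10 were lower, against 18.0%. In PG, HoxC was at 196 CPM in fibroblasts and 2.27 CPM in keratinocytes, 86.4-fold higher, whereas HoxD was at 55.0 and 183 CPM. Of 19 Hox genes, 7 were higher in PG fibroblasts, against 22.0% of all 12578 genes, and 8 were lower, against 20.6%. 

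Within a tissue, levels also varied between clusters of cells. In skin, Hoxc8 was at 26.7 to 87.0 CPM in clusters 4, 12, 17, 21 and 23, whose most frequent class was fibroblast. It was at 408 CPM (264 to 603) in cluster 36, a group of 27 cells led by Ndnf, Hhip and Rspo4, of which 13 passed the fibroblast gate. Hoxc6 and Hoxc4 were at 245 and 163 CPM there, and the total of 1323 CPM (1050 to 1644) was the highest of all clusters. Among skin keratinocytes, the total Hox level ranged from 76.3 CPM in cluster 6 (led by Ifi202b and Serpinb2, with Krt16) to 674 CPM in cluster 1 (led by Grem1 and Wfdc3, with Krt24). In PG, Hoxc9 was the highest Hox gene of the fibroblast clusters 4, 9 and 13, at 48.5 to 73.5 CPM. Cluster 16 (led by Lgr5 and Eln) was mixed, with 57 of 123 cells in the fibroblast gate. Hoxa9 was at 74.2 CPM (24 UMIs) there and Hoxc9 at 27.8 CPM. Among all 569 gated PG fibroblasts, Hoxa9 was detected in 10 cells. The values of cluster 16 are thus not those of fibroblasts alone.

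Immune cells served as the background class. They had 6 Hox UMIs in skin (12.6 CPM, 4.64 to 27.5) and 18 in PG (44.2 CPM, 26.2 to 69.9). The barcodes with at most 10 UMIs, which hold mostly free RNA, had 364 CPM in skin and 301 CPM in PG, so immune cells were at 3.48% and 14.7% of the free RNA level. After thinning to 1000 UMIs, any Hox gene was found in 1.22% and 4.04% of immune cells, against 25.4% of skin keratinocytes, 29.5% of skin fibroblasts and 50.2% of hair matrix cells. Endothelial cells, at 49 in skin and 38 in PG, had 588 CPM (455 to 748) and 612 CPM (437 to 833). Hoxd8 and Hoxd9 had 7 and 8 UMIs in those of skin and 6 and 7 in those of PG, and Hoxb7 had 14 and 0. Paralog groups 9 to 13 made up 22.7% of endothelial Hox UMIs in skin (13.3 to 34.7, of 66 UMIs) and 25.0% in PG (12.7 to 41.2, of 40 UMIs). The higher posterior share of PG in fibroblasts and keratinocytes was thus not seen in this small class.

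Several Hox genes were detected in the same cell. Hoxa9 and at least 1 HoxD gene were both detected in 331 of 748 PG sebocytes (44.2%, 40.6 to 47.9), and Hoxc13 and at least 1 HoxB gene in 107 of 311 hair matrix cells (34.4%, 29.1 to 40.0). Taken singly, Hoxa9 was detected in 58.0% and HoxD in 68.85% of these sebocytes. Hoxc13 was detected in 67.5% and HoxB in 49.8% of these hair matrix cells. Whether the joint shares exceed what the single shares give was not tested. Few genes were seen per cell at this depth, with a mean of 2.12 in PG sebocytes, 1.67 in hair matrix and 0.613 in skin fibroblasts.

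Of the 39 genes, 33 had at least 10 UMIs in at least 1 class. The other 6 were Hoxa11, Hoxa13, Hoxb13, Hoxc12, Hoxd1 and Hoxd12, with at most 2 UMIs in any class, and Hoxa13 and Hoxb13 had 0 throughout. Counts of genes above 3 UMIs were 19 in skin fibroblasts, 26 in skin keratinocytes, 15 in hair matrix and 16 in inner root sheath, and 14, 14 and 12 in PG fibroblasts, keratinocytes and sebocytes. These counts were not matched for the number of UMIs, which differs between the classes.

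Cofactors and regulators of Hox genes were compared in the same way. Of the TALE proteins, the Pbx, Meis and related partners with which Hox proteins bind DNA, 9 of 11 could be compared between fibroblasts, of which 1 was higher and 1 lower in PG by 2-fold or more, near the shares of all genes (11.0% and 10.9%). Between keratinocytes 1 of 11 was higher and 1 lower, against 18.0% and 20.6% of all genes. Tgif1 was at 40.3 CPM in skin keratinocytes and 29.9 CPM in PG (log2 ratio -0.43, -0.66 to -0.20). Among caudal, Polycomb and Trithorax regulators, 10 of 14 could be compared in each class, none of them a caudal (Cdx) gene. Of these 10, 1 was lower in each class, against 10.9% of all genes in fibroblasts and 20.6% in keratinocytes. In keratinocytes that was Kmt2a, a Trithorax methyltransferase that keeps Hox genes active, at 116 CPM in skin and 52.6 CPM in PG (log2 ratio -1.14, -1.30 to -0.98). Ezh2, the Polycomb methyltransferase, was at 55.4 and 44.3 CPM.

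Of 13 other transcripts of the Hox clusters in the file, 6 could be compared between keratinocytes, with 1 higher and 5 lower in PG, against 18.0% and 20.6% of all genes. Hotairm1 had 833 UMIs in skin keratinocytes (48.3 CPM) and 4 in PG (0.567 CPM). Hoxaas3 had 237 and 6, and Hoxb3os 241 and 11. Hoxd3os1 had 31 UMIs in skin (1.80 CPM) and 171 in PG (24.3 CPM), a log2 ratio of 3.75 (3.20 to 4.36). Its name gives it as an opposite-strand transcript of Hoxd3, and whether the deposited counts used strand is not given in the sources used here. Among 32 other regional transcription factors, 10 could be compared between keratinocytes, with 3 higher and 7 lower in PG, against the same shares of all genes. Lhx2, a hair follicle factor, had 912 in skin (52.9 CPM) and 0 in PG. Between fibroblasts 21 could be compared, of which 9 were higher and 4 lower in PG, against 11.0% and 10.9% of all genes.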

How the data were processed

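Single cells of back skin biopsies and whole preputial glands were captured on the Chromium platform with 3′ end counting. The authors deposited counts of UMIs per gene and barcode for every listed barcode, with no filter and no normalization. Per the labels they used Cell Ranger and build mm10. The header of each matrix names version 4 of the software. The members and lists described here were chosen with earlier results of these data known.

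From the deposited counts, barcodes were kept from 500 genes and 1000 UMIs upwards if mitochondrial genes held no more than 10% of the UMIs. A cell joined a class with at least 3 of its markers and at most 2 of any other list, where keratinocyte markers were not held against hair matrix, inner root sheath or sebocyte cells. Sebocytes also needed 30 of 10000 UMIs from their list. This scoring was set after the marker distributions had been seen. Cells at the minimum of 3 markers numbered 78 fibroblasts, 746 keratinocytes, 137 hair matrix cells, 147 inner root sheath cells and 7 sebocytes in skin, and 50, 494 and 366 fibroblasts, keratinocytes and sebocytes in PG. UMIs were summed per class, and a group at 0 was set to 3 counts for bounds. Genes were compared with at least 10 UMIs over both groups. All 39 Hox genes were counted, and values are given for those with at least 10 UMIs in a class. From each companion list at most 5 genes were named, those with the most UMIs. Clusters came from Leiden clustering of each library without Hox genes (scanpy 1.11.5, leidenalg 0.10.2). Doublet scores came from Scrublet. Scripts were tested on simulated data (scipy 1.17.1, Python 3.11.15). Alternatives changed the cell filters, gate, scaling, free RNA, doublets, fold and minimum of UMIs. A few genes are not reported here by name or in the figures. Strand settings of the counting are not given in the sources used here.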

Additional observations from a re-analysis of the deposited data

Results flagged for a closer look

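Hox mRNA was also found outside the gated classes. Cells in no class were at 378 CPM in skin and 294 CPM in PG, barcodes above 10% mitochondrial UMIs at 575 CPM and 383 CPM, and barcodes with at most 10 UMIs at 364 CPM and 301 CPM. None of these entered a comparison, and no control samples exist.

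The contrast of fibroblasts with keratinocytes ran in opposite directions in the tissues, with each counting interval on 1 side of 0, for Hoxd8 and for 3 sums of genes. Log2 ratios of fibroblasts over keratinocytes were 1.90 in skin and -2.70 in PG for Hoxd8, 1.46 and -1.74 for HoxD, -0.88 and 2.45 for HoxB, and 0.19 and -0.55 for paralog groups 1 to 8. Hoxa9, Hoxd4 and Hoxd9 also had opposite signs, but their intervals in skin, on 3 to 11 UMIs in fibroblasts, included 0. HoxB in PG rests on 13 and 20 UMIs. It was at 15.5 CPM in PG fibroblasts (8.28 to 26.6) and 12.3 CPM in PG immune cells (3.99 to 28.7), the background class. The difference between the tissues was not tested, since each has 1 library.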

How the results depend on the processing

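The 13 alternatives gave 147 values for the class sums, shares and counts, of which 124 stayed within the counting interval or within 1.5 times a count. No value whose interval lay on 1 side of 0 changed sign. Of 1085 values for 125 single-gene ratios, 1046 stayed within the interval and 1050 kept their sign. With cells kept from 1000 genes and 2000 UMIs upwards, 49 PG fibroblasts were left. The Hox level of PG over skin was then -0.64 in fibroblasts and 0.24 in keratinocytes on the log2 scale, the posterior share of PG fibroblasts was 65.5%, 0 genes were higher and 2 lower between fibroblasts, and 1 gene was above 3 UMIs in PG fibroblasts and 0 in skin sebocytes. Skin sebocytes also had 0 such genes with mitochondrial UMIs at most 5% and with 1 more marker, beside 1 in the report. With 1 more marker, Hoxc13 was 5.35 higher in hair matrix than in keratinocytes on the log2 scale and the posterior share of skin keratinocytes was 7.195%. With Leiden clusters in place of the gate these were 5.19 and 7.87%, and the keratinocyte ratio was 0.16. That ratio was 0.14 without ribosomal protein and mitochondrial genes in the total and -0.12 as a mean over cells, the opposite sign to the 0.04 of the report, whose interval held 0. With 5% free RNA subtracted, Hoxc13 was 4.99 higher and the posterior share of skin keratinocytes was 7.86%. With at least 20 UMIs, 2 genes were higher in PG fibroblasts, where fewer genes are compared. The share of all genes past the fold limit was not counted under the alternatives. With posterior taken from paralog group 10, the shares were 3.03% and 42.0% in skin and PG fibroblasts and 6.18% and 25.4% in keratinocytes. Where not stated, the cause was not tested.

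Scrublet's own threshold called 2 of 8899 skin cells and 0 of 4699 PG cells, so that removal was not run. In its place, an alternative chosen after seeing the data removed the highest scores, 7.12% and 3.76% of cells. No paired analysis was possible because each tissue has 1 library. With 250 Hox UMIs in PG fibroblasts and 21 in skin sebocytes, single genes there rest on few molecules.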
